A study of Mus musculus with 6 samples.

Results

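The suppressor of cytokine signalling family was described in Ba/F3 cells, a mouse line labelled as interleukin-3-dependent pro-B cells, with and without an activated JAK2 fusion kinase. The family comprised Cish and Socs1 to Socs7, chosen as a named gene family, with earlier results of these data known: 8 of 18193 genes measured, read by 24 of 34945 probe sets. The induced group (3 arrays) held cells that carried SPAG9-JAK2, a fusion of the JAK2 kinase with the scaffold SPAG9, on a retroviral Tet-On system and were given doxycycline at 500 ng/ml. The uninduced group (3 arrays) held the same transduced cells without doxycycline. RNA was extracted from both after 48 hours. No array held doxycycline-treated cells without the fusion, so the drug and the fusion cannot be told apart. The labels do not say whether the line was 1 clone or whether interleukin-3 was in the medium.

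Cytokine receptors signal through JAK kinases, which phosphorylate STAT transcription factors, and STATs in turn switch on genes of this family. The proteins hold an SH2 domain, which binds phosphorylated tyrosine, and a SOCS box, which binds elongins B and C and recruits a cullin ubiquitin ligase. SOCS1 and SOCS3 also carry a kinase inhibitory region that blocks JAK activity directly, whereas CIS, the product of Cish, and SOCS2 bind receptors and are classical products of STAT5 in interleukin-3-dependent cells. SOCS1 is the main brake on interferon signalling. SOCS4 to SOCS7 have long N-terminal regions and are tied more to receptor tyrosine kinases and insulin signalling than to cytokine feedback.

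The promoters of Cish, Socs1 and Socs3 are shown because they held matches to binding motifs. The choice also drew on the readings of their genes, so the motifs are no separate evidence on those readings. A link between motif and reading was not tested. A promoter in the RefSeq-based table (build GRCm38.p6) was matched by symbol for 4 members, Cish, Socs1, Socs3 and Socs4, each running from 250 bases before to 50 bases after the annotated start. Both strands were searched for TTCNNNGAA, the core of the STAT binding site, which reads the same on either strand, and for GAAANNGAAA, the core of the element bound by interferon regulatory factors. Capitals mark the matches, and sequences run 5′ to 3′ on the gene's strand.
Cish, chr9:107296409-107296708, plus strand: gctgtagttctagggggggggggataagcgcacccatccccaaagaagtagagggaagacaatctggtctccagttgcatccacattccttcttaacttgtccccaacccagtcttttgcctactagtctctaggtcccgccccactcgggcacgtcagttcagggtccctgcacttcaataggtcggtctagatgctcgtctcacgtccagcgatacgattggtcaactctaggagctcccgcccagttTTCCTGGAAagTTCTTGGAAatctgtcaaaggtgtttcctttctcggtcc
Socs1, chr16:10785487-10785786, minus strand: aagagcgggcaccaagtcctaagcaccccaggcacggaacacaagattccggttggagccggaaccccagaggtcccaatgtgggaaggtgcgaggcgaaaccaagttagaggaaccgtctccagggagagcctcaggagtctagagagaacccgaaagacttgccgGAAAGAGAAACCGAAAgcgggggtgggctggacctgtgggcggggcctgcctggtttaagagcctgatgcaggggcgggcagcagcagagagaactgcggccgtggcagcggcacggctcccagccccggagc
Socs3, chr11:117969317-117969616, minus strand: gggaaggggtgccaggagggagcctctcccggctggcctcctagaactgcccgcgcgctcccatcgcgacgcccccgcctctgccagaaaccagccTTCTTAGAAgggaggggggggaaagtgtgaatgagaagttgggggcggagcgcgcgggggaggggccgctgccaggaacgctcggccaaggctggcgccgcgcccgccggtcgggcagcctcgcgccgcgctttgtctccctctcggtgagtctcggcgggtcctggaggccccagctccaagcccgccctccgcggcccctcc
Cish held 2 STAT motifs, at bases 1 to 9 and 12 to 20 of the transcript, Socs3 held 1, from base -154 to base -146, and Socs1 and Socs4 held 0. Socs1 held 2 interferon regulatory factor motifs that overlap one another, from base -83 to base -74 and from base -77 to base -68, and the other 3 promoters held 0. Neither kind overlapped the other. Of all 32851 promoters in the table, 8.30% held the STAT motif and 0.457% held it 2 or more times, while 3.44% held the interferon regulatory factor motif and 0.225% held it 2 or more times. A match is a string of letters and does not show that a factor binds there.

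The arrays, scaled by the authors, read 45101 probe sets each, with a median signal intensity from 46.5 to 55.2 on induced and from 46.3 to 63.8 on uninduced arrays. Uninduced replicate 1 had the highest median and stood apart from uninduced replicates 2 and 3 for several members, so results are also given without it. Of 9 early B lineage markers 6 had a mean level at or below the highest of 10 liver, brain, heart and pancreas genes that stood for background (5.92 as log2(signal + 16)), while the 3 interleukin-3 receptor subunit genes and Ptprc lay above it. The labelled pro-B identity was thus carried by few of its markers. The 9 myeloid markers had a summed signal of 650 to 1288 on induced and of 1337 to 3333 on uninduced arrays, 7 of 9 had a negative fold change and 0 passed the test. Their part in the results below was not tested, and in bulk RNA fewer cells of a type and less RNA per cell cannot be told apart. The mouse Jak2 probe set of highest signal read 1430, 1740 and 1600 on induced arrays and 1175, 3439 and 3081 on uninduced arrays. The sources do not say whether the fusion's sequence matches this probe set, so it does not check the labels.

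Socs1 was the member with the largest difference between the groups. Its 1 probe set (1450446_a_at) read 272, 340 and 288 on induced arrays and 135, 86.8 and 95.8 on uninduced arrays. All 3 induced arrays lay above all 3 uninduced ones, and the uninduced array nearest to them was replicate 1. Means were 300.3 ± 35.7 on induced and 106 ± 25.7 on uninduced arrays (SD, n = 3 each). This was the lowest mean level of any member's probe set of highest signal, at percentile 60.2 of all probe sets. The log2 fold change, a difference of log2(signal + 16) that understates the change of dim genes, was 1.39 ± 0.21 (SE), or 2.62-fold with a 95% interval from 1.86 to 3.70. In limma, with Benjamini-Hochberg adjustment over 18193 genes, the adjusted p was 0.0823, so Socs1 missed the threshold of 0.05. The difference was 0.93 between the arrays numbered 1, 1.79 between those numbered 2 and 1.45 between those numbered 3. Without uninduced replicate 1 it was 1.56 with an adjusted p of 0.0170 in limma, and Socs1 was then the 1 member called, while 7.99% of all genes were called. Without any other single array its adjusted p was 0.128 to 0.276 in limma.

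Cish and Socs2, the members best known as STAT5 products, gave no difference that exceeded the spread between arrays. Cish (1448724_at) read 1242, 857 and 946 on induced arrays and 1895, 971 and 885 on uninduced arrays. The groups overlapped, and uninduced replicate 1 was the highest of all. The log2 fold change was -0.23 ± 0.33 (SE), with a 95% interval from -1.02 to 0.56 and an adjusted p of 0.761 in limma. Without uninduced replicate 1 the value was 0.11, and without both arrays numbered 1 it was -0.04. On the fold scale the interval ran from 0.494 to 1.48, so that changes either way lie within it.

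Socs2, a regulator of growth hormone receptor turnover, was read by 6 probe sets. The one of highest signal (1449109_at) read 1801, 2090 and 1915 (induced) and 2665, 1664 and 1535 (uninduced). Induced arrays lay between uninduced replicate 1 and the other two uninduced arrays. The log2 fold change was 0.03 ± 0.24 (SE), with an adjusted p of 0.971 in limma and a 95% interval from 0.678-fold to 1.53-fold. The next probe set in signal (1418507_s_at), with values of 1428, 972 and 1086 on induced arrays and of 1590, 916 and 1092 on uninduced arrays, gave -0.03 ± 0.27. These brightest 2 probe sets were therefore alike in fold change but not in the order of the arrays. Induced replicate 1 was the lowest induced array with 1449109_at and the highest with 1418507_s_at. The other 4 were dim, with mean signals of at most 113 in either group, and spread from -1.01 to 0.85 in log2 fold change. Among them 1442586_at read 76.1, 53.0 and 74.8 on induced arrays and 107, 123 and 109 on uninduced arrays, with groups that did not overlap, and its adjusted p over all probe sets was 0.206 in limma.

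The value of Socs3, which inhibits receptors of the interleukin-6 and granulocyte colony-stimulating factor type, rested mostly on 1 array. Its probe set of highest signal (1455899_x_at) read 1158, 538 and 428 on induced arrays and 397, 538 and 348 on uninduced arrays. Induced replicate 1 was far above the rest and the other 5 arrays overlapped. The other 2 probe sets showed the same array on top, with 818, 305 and 413 (induced) and 310, 469 and 437 (uninduced) for 1456212_x_at, and with 464, 226 and 160 (induced) and 209, 168 and 183 (uninduced) for 1416576_at. Probe sets whose names end in x_at hold probes that can bind other transcripts, and 1416576_at, which does not carry that mark, had the same array on top. The log2 fold change was 0.60 ± 0.39 (SE) with an adjusted p of 0.475 in limma, and 0.18 without induced replicate 1. By replicate number the differences were 1.51, 0.00 and 0.29.

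**Figure D1:**
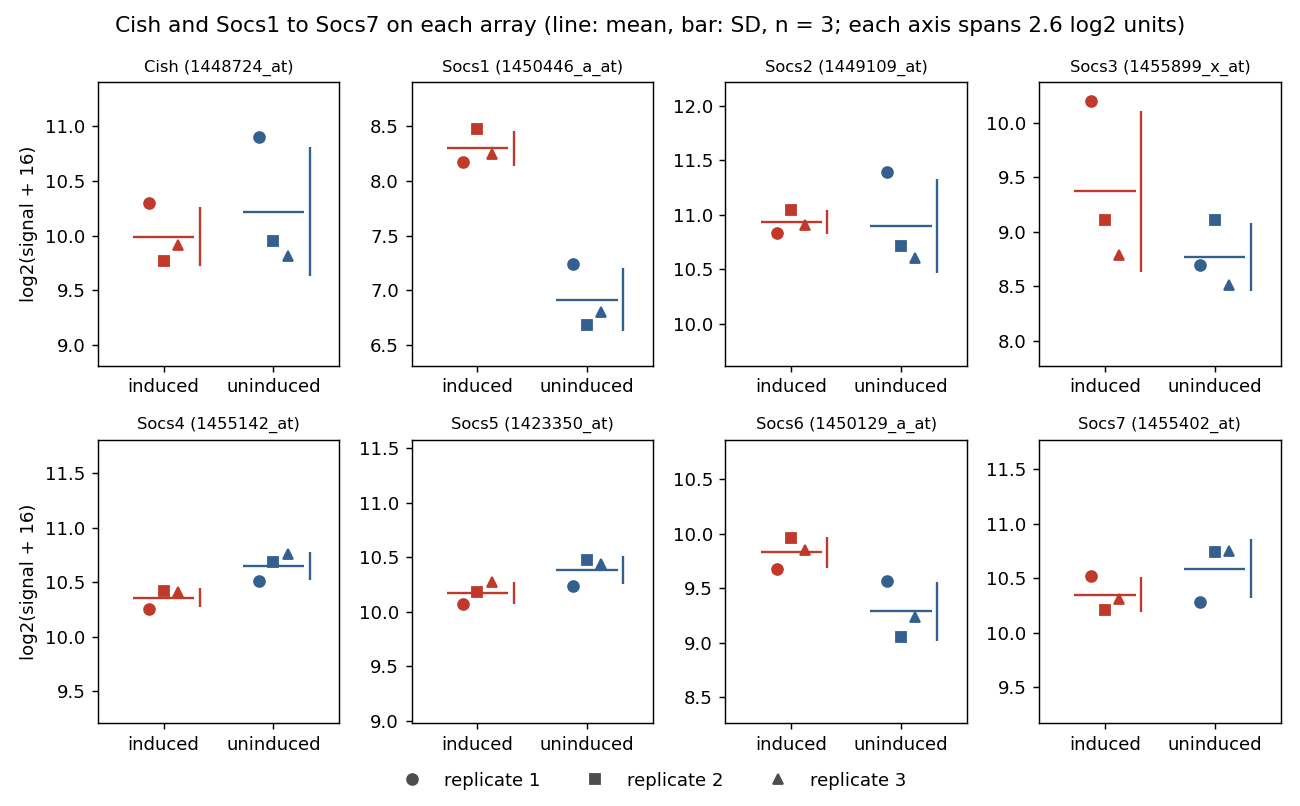
Level of each member on each array as log2(signal + 16), for the probe set of highest mean signal, with induced arrays left and uninduced arrays right. Horizontal lines are means, vertical bars SDs (n = 3), symbols the replicate numbers, and each panel has its own origin, so heights are not to be compared between genes. Only for Socs1, Socs6 and Socs4 do the groups not overlap, uninduced replicate 1 is the highest array for Cish and Socs2, and induced replicate 1 is the highest for Socs3.

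Socs6 and Socs4, both expressed members outside the classical feedback group, depended on the probe set. For Socs6, whose product binds insulin receptor substrates and the KIT receptor, 1450129_a_at read 807, 982 and 906 on induced arrays and 747, 512 and 589 on uninduced arrays. All 3 induced arrays were above the uninduced ones, the gap being narrowest between the arrays numbered 1. The log2 fold change was 0.54 ± 0.20 (SE), with an unadjusted p of 0.0297 and an adjusted p of 0.235 in limma. A second probe set (1435492_at), with values of 341, 212 and 249 on induced arrays and of 249, 291 and 281 on uninduced arrays, stood at -0.06 ± 0.22. The dimmest (1452764_at) stood at 0.40 ± 0.27, with 84.7, 108 and 87.4 on induced and 93.2, 74.4 and 41.1 on uninduced arrays. The Socs6 difference was thus carried by 1 bright probe set and, with overlapping groups, by 1 dim one.

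Socs4, which acts on the epidermal growth factor receptor, had probe sets of opposite sign. The brightest (1455142_at) read 1204, 1350 and 1348 on induced arrays and 1439, 1632 and 1713 on uninduced arrays. All induced arrays were below all uninduced arrays, but by little, and the log2 fold change was -0.29 ± 0.16 (SE) with an adjusted p of 0.395 in limma. In contrast, 1421273_at read 194, 263 and 298 on induced arrays and 179, 179 and 173 on uninduced arrays. Its groups did not overlap in the other direction, with 0.45 ± 0.20 and an adjusted p over all probe sets of 0.339 in limma. The 2 dimmer ones stood at 0.55 ± 0.36 (1421275_s_at) and 0.73 ± 0.30 (1421274_at). Without uninduced replicate 1 they stood at 0.97 and 1.03 and passed over all probe sets, with adjusted p-values of 0.0367 and 0.0470 in limma. Without both arrays numbered 1 neither passed, with adjusted p-values of 0.0538 and 0.0722 in limma. For 1421275_s_at uninduced replicate 1 read 134, above the induced arrays at 105 to 108. The probe sets of Socs4 thus gave no single direction.

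Socs5 and Socs7 gave small values. Socs5, which limits interleukin-4 and epidermal growth factor receptor signalling, read 1062, 1147 and 1216 (induced) and 1191, 1403 and 1375 (uninduced) with 1423350_at. Its log2 fold change was -0.21 ± 0.16 (SE), with groups that overlapped, and its second probe set (1423349_at), with 413, 559 and 480 on induced and 471, 461 and 525 on uninduced arrays, gave -0.01 ± 0.18. Socs7, which binds insulin receptor substrates and the adaptor NCK, read 1449, 1165 and 1257 (induced) and 1229, 1693 and 1709 (uninduced) with 1455402_at, a log2 fold change of -0.25 ± 0.20. The groups overlapped because the arrays numbered 1 ran the other way, with a difference of 0.23 against -0.53 and -0.44. A second bright probe set (1434834_at), with 417, 534 and 384 on induced and 489, 621 and 636 on uninduced arrays, stood at -0.38 ± 0.21. A dim one (1420766_at) did not overlap and pointed up, with 94.4, 101 and 135 on induced and 65.4, 81.1 and 88.9 on uninduced arrays, and 0.41 ± 0.20. The last (1438492_at) was at background, with a signal of at most 27.0 on any array.

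As a family, 0 of 8 members passed an adjusted p of 0.05 in limma, where 0.187% of all genes did (34 genes, 21 higher and 13 lower, or 24 and 6 with each array centred on its median). At an unadjusted p under 0.05 there were 2 members, Socs1 and Socs6, against 17.4% of all genes. The groups did not overlap for 3 of 8 members, Socs1 and Socs6 above and Socs4 below, against 24.1% of all genes. Over probe sets, 0 of 24 passed in limma against 0.120% of all probe sets. An unadjusted p under 0.05 was reached by 4 of 24, with a higher induced mean for Socs1, Socs6 and 1421274_at of Socs4 and a lower one for 1442586_at of Socs2, against 5575 of all 34945, or 16%. Groups did not overlap for 6 of 24 against 22.4%. Both shares are near those of all probe sets. The median log2 fold change of the 8 genes was -0.09, and that of all genes -0.06. Without uninduced replicate 1, 3 of 24 probe sets passed, that of Socs1 and the dimmest 2 of Socs4, against 6.18% of all probe sets. Of the 24, 3 had both group means at or below that of the highest background gene, 2 of Socs2 and 1 of Socs7.

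**Figure D2:**
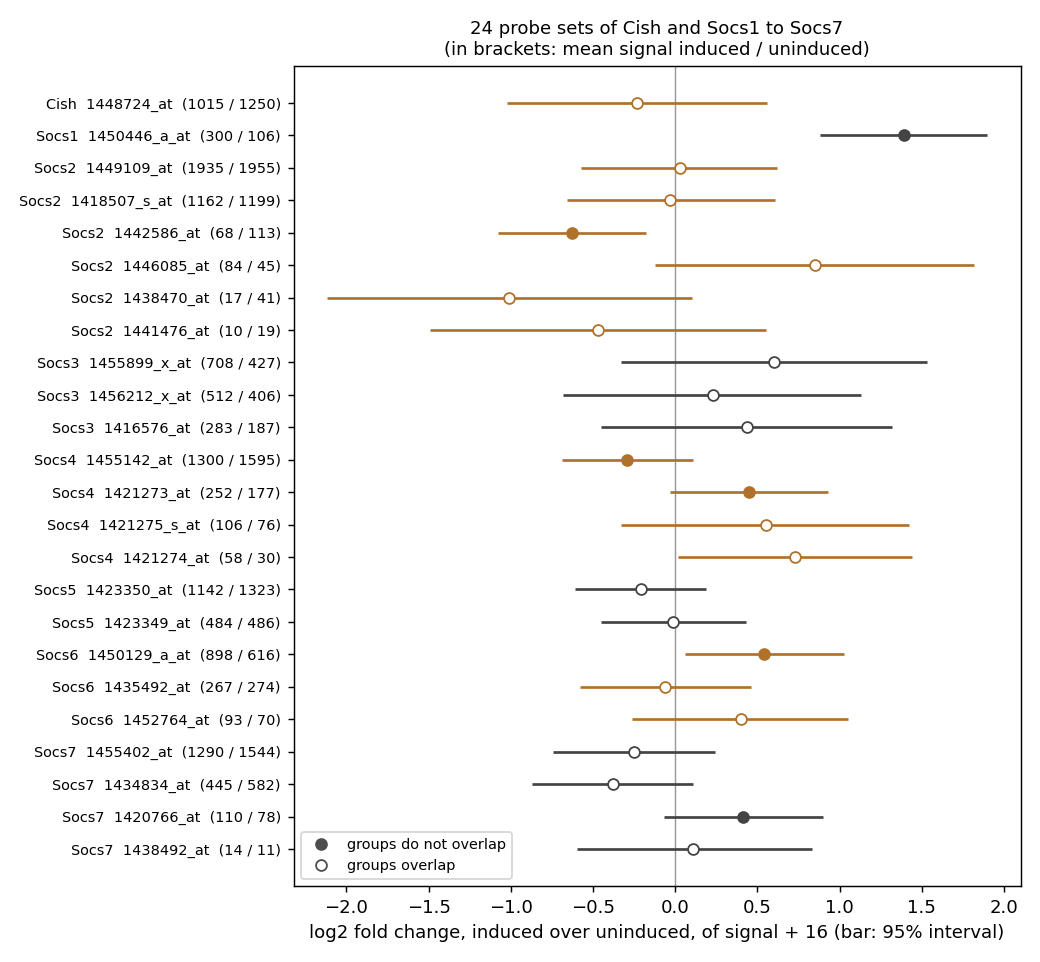
Log2 fold change of signal + 16, induced over uninduced, of the 24 probe sets of the family with 95% intervals from limma, and the mean signals of both groups in brackets. Filled points mark probe sets whose groups do not overlap, and the alternating colours only separate genes. Socs1 has the highest value, 1.39, at a modest signal. The brightest 2 of Socs2 lie at 0.03 and -0.03, and the probe sets of Socs4 and of Socs7 lie on both sides of 0.

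**Figure D3:**
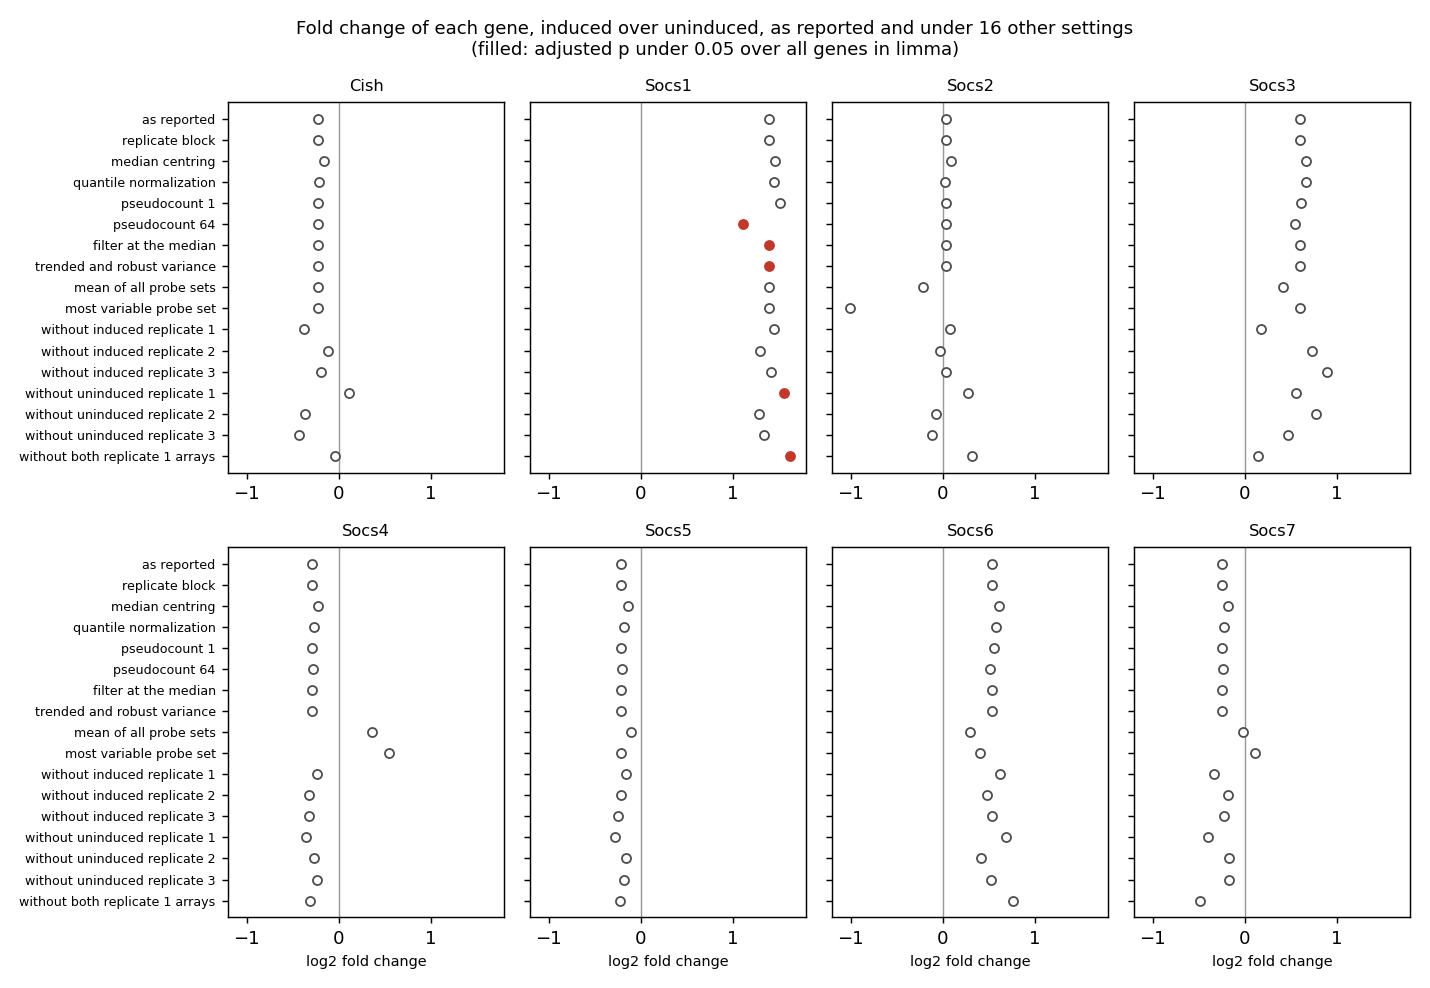
Log2 fold change of each member, induced over uninduced, as reported (top) and under 16 other settings down each panel, with filled points where the adjusted p was under 0.05 in limma over all genes. Socs1 stays between 1.11 and 1.62 and is filled under 5 settings, whereas Cish, Socs2, Socs4 and Socs7 cross 0 under at least 1.

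The partners of the SOCS box gave no difference beyond the spread between arrays. Of 6 genes for the elongins, cullins and RING proteins of the ligase 0 passed in limma and 0 had an unadjusted p under 0.05. Elob, for elongin B, read 6729, 5606 and 5545 on induced arrays and 6617, 4604 and 4766 on uninduced arrays, and Cul2, a cullin scaffold, stood at 0.24 ± 0.21. Of 27 other SOCS box genes 0 passed and 3 had an unadjusted p under 0.05, 14 were above 0 and 13 below, and the median was 0.03. The smallest p-values among them were those of Neurl2, the substrate-binding part of a muscle ubiquitin ligase, with 155, 97.8 and 128 on induced and 229, 518 and 484 on uninduced arrays, and of Rab40c, a small GTPase, at -0.65 ± 0.17.

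Upstream genes were mixed. Of 10 JAK and STAT genes 0 passed and 3 had an unadjusted p under 0.05, against 17.4% of all genes, while 5 were above 0 and 5 below. Stat2, part of the type I interferon transcription complex, read 524, 943 and 807 on induced arrays and 256, 259 and 278 on uninduced arrays, and its adjusted p was 0.0897 in limma. Stat5b stood at -0.69 ± 0.25, with uninduced replicate 1 (670) inside the induced range of 462 to 672. Of 23 receptors that the family acts on 0 passed and 7 had an unadjusted p under 0.05, while 7 were above 0 and 16 below, with a median of -0.21. Il2ra, the alpha chain of the interleukin-2 receptor, read 66.5, 235 and 98.6 on induced arrays and 957, 487 and 604 on uninduced arrays (adjusted p of 0.109 in limma), and Insr, the insulin receptor, stood at -1.02 ± 0.22.

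Among 14 other negative regulators of the pathway 0 passed and 7 had an unadjusted p under 0.05, against 17.4% of all genes, while 6 were above 0 and 8 below. Ptpn6, the phosphatase SHP-1, read 4674, 6849 and 7530 on induced arrays and 1357, 2024 and 1875 on uninduced arrays. Its groups were far apart, with 1.84 ± 0.26 and an adjusted p of 0.0750 in limma. Leaving out 1 array gave adjusted p-values in limma of 0.0309 without uninduced replicate 1, where the log2 fold change was 1.67, and of 0.0960 to 0.276 without any other. Usp18, which blocks the type I interferon receptor, read 1731, 3943 and 1855 on induced arrays and 752, 140 and 101 on uninduced arrays, or 3.28 ± 0.74. For Usp18 uninduced replicate 1 was the nearest to the induced arrays, whereas for Ptpn6 it was the farthest.

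Of 14 STAT5 targets besides the family 0 passed and 2 had an unadjusted p under 0.05, while 8 were above 0 and 6 below, and the median was 0.02. Besides Il2ra, the smallest p was that of Pim1, a survival kinase, with 8986, 8559 and 7235 on induced arrays and 12510, 11706 and 11426 on uninduced arrays, a log2 fold change of -0.53 ± 0.16. Of 12 STAT3 targets 0 passed and 3 had an unadjusted p under 0.05, and the median was -0.12. Vegfa, an angiogenic factor, stood at -1.26 ± 0.20 and Il4ra at -0.88 ± 0.22.

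**Figure D4:**
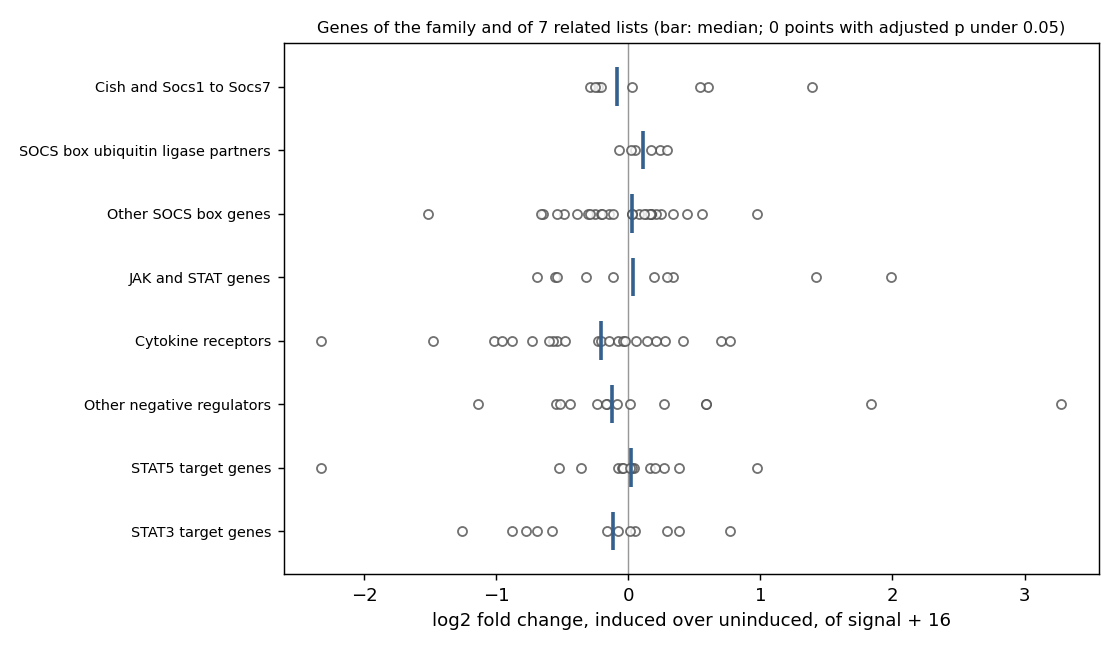
Log2 fold change of signal + 16, induced over uninduced, for the 8 members (top row) and the genes of 7 lists of their pathway, 1 point a gene. Blue bars are medians, and 0 of the points shown passed an adjusted p of 0.05 in limma over all genes. The medians of all rows lie between -0.21 and 0.11, and Socs1 is the rightmost point of the family.

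The genes most like the members in pattern were sought among 2443 genes with a mean at or above the median of all genes and a range of at least 1 on the log2 scale. For Socs1 the highest Pearson r over the 6 arrays was 0.999, reached by Irgm2, an immunity-related GTPase gene, Oasl2, an oligoadenylate synthetase-like gene, and Ppp2r1b, a phosphatase scaffold subunit gene. Of these Irgm2 (3.21 ± 0.34) and Oasl2 (4.45 ± 0.48) rose in limma, each with an adjusted p of 0.0396, and Ppp2r1b stood at 1.13 ± 0.19. For Socs6 they were Sec23b (0.997), Setdb2 and B3galt6 (0.992 each), and for Socs4 Mapk13 (0.996), Cma1 (0.993) and Tjp3 (0.990). The 6 arrays form the 2 groups compared here, and these values are a description.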

How the data were processed

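RNA of 6 Ba/F3 cultures was measured on 6 Affymetrix arrays, 3 induced and 3 uninduced, grouped by the titles. The deposited values are linear signal intensities, made by the authors with Affymetrix Expression Console 1.4.1 per the submitters' processing notes. How probes were summarised is not stated in the labels. The mean signal of every array was 500 once the top and bottom 2% were dropped. The labels name a triplicate and no separate experiments, so p-values reflect only how these cultures varied, which may be technical. Precision is limited by having 6 arrays.

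From these, log2(signal + 16) was taken without further normalization. Of 45037 probe sets besides 64 controls, the platform table named 1 gene for 34945, several for 932 and none for 9160. Only the first were used. All 24 probe sets of the family matched their gene by Entrez number in the GRCm38.p6 table. At gene level the probe set with the highest mean stood for its gene (18193 genes). limma 3.58.1 in R 4.3.3 (lmFit and eBayes with 4 residual degrees of freedom, a two-sided test, Benjamini-Hochberg adjustment, threshold 0.05) was run over all genes and, separately, over all probe sets. An exact permutation of 3 against 3 arrays cannot go below 0.1 and was not used. The fit was tested on simulated data. Of each pathway list the 2 genes with the smallest p and all that passed are named, 1 list not being reported here, and for the 3 members with the smallest p the 3 genes of highest Pearson r. The members and lists were chosen with earlier results of these data known. Mbp, one of 11 measured genes meant to be silent, was read at a high level and left out of the background range after its values were seen. Alternatives tried were quantile normalization, centring on the median, the replicate number as a block, pseudocounts of 1 and 64, a filter at the median, trended and robust variance, other choices of probe set, and leaving out arrays. Figures were drawn with matplotlib 3.10.9.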

Additional observations from a re-analysis of the deposited data

How the results depend on the processing

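The count of genes called depended on the settings more than the fold changes of the family did. In place of 34 genes, 0 passed in limma with the replicate block (3269 at an unadjusted p under 0.05) and with a pseudocount of 1 (2807 unadjusted), 255 with a pseudocount of 64, 742 with the filter at the median, 550 with trended and robust variance, 19 with the most variable probe set and 1477 without both replicate 1 arrays. Leaving out 1 array gave from 0 to 1453. In place of 0 members, 1 passed, Socs1, with a pseudocount of 64, the filter at the median, trended and robust variance and without both replicate 1 arrays, and leaving out 1 array gave from 0 to 1. In place of 0 member probe sets, 1 passed under the first 3 of those settings, and leaving out 1 array gave from 0 to 3. Without both replicate 1 arrays 2 passed, those of Socs1 and the dim 1438470_at of Socs2 (-1.62, adjusted p of 0.0482 in limma). The share over all probe sets was computed only with all arrays (0.120%) and without uninduced replicate 1 (6.18%). The other counts of member probe sets therefore have no background beside them. Adjusted p-values of Socs1 in limma ranged from 0.0170 to 0.276 over the alternatives, and it was 0.198 with the replicate block. Directions that turned were those of Cish (leaving out 1 array gave from -0.43 to 0.11), of Socs2 (-0.21 with the mean of all probe sets, -1.01 with the most variable one, and from -0.12 to 0.27 leaving out 1 array), of Socs4 (0.36 with the mean of all probe sets and 0.55 with the most variable one) and of Socs7 (0.11 with the most variable one). The values with the most variable probe set were those of 1438470_at for Socs2, 1421275_s_at for Socs4 and 1438492_at for Socs7. Those of Socs2 and Socs7 had both group means at or below that of the highest background gene. Why the directions turned was not tested. Socs1, Socs3, Socs5 and Socs6 kept their direction under all 16 alternatives.

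The labels do not say whether the replicate numbers pair the arrays, and the main fit did not pair them. The deviations of same-numbered arrays correlated at 0.17, 0.08 and 0.08, and those of arrays with different numbers at -0.12 to 0.06. Every array correlated best with the array of its own number in the other group, a hint from the data and not from the design. The mean of each group was subtracted first, so these correlations are tied to one another and are not separate hints. Among replicates 2 and 3 the margin was small, 0.08 for the same number against 0.05 and 0.06 for different numbers. With the replicate block 0 members passed, as without it, while over all genes 0 passed in place of 34. Dim probe sets, with signals near those of silent genes, limit what can be said of 4 of the 6 Socs2 probe sets.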

Other observations

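Both arrays numbered 1 read Fos, an immediate early transcription factor gene chosen here after its values were seen, far above the rest: 1509, 231 and 233 on induced arrays and 2651, 416 and 396 on uninduced arrays. Induced replicate 1 was also the highest induced array for Socs3 and Cish, and uninduced replicate 1 the highest uninduced array for Cish and Socs2. The match was partial and depended on the probe set. For Socs2 induced replicate 1 was the lowest induced array with 1449109_at (1801) but the highest with 1418507_s_at (1428). For Socs3 uninduced replicate 1 (397) lay below uninduced replicate 2 (538) with 1455899_x_at, and was the lowest uninduced array with 1456212_x_at (310). With 1416576_at it was the highest uninduced array (209, against 168 and 183). A link between Fos and these members was not tested. Cish, Socs2 and Socs3 each differed by more between replicates of 1 group than between the groups, and so did Socs5 and Socs7.

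The erythroid regulator genes Klf1 and Gata1 were the 2 measured of 4 on a marker list and were likewise chosen after their values were seen. They had signals as high as 4499 and 3784 on induced arrays. The groups did not overlap for either, as for 24.1% of all genes, and neither passed, with adjusted p-values of 0.0825 and 0.23 in limma. Klf1 read 3687, 4499 and 4097 on induced arrays and 2025, 1922 and 2049 on uninduced arrays.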
